A study of Mus musculus with 24 samples.

Results

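The miR-106b~25 cluster was followed through its 6 mature miRNAs, the 5p and 3p arms of 3 hairpins: mmu-miR-106b-5p, mmu-miR-106b-3p, mmu-miR-93-5p, mmu-miR-93-3p, mmu-miR-25-3p and mmu-miR-25-5p, written below without the species prefix. They were picked by name out of 1221 mature miRNA names in the counts table, and all 6 were among the 414 miRNAs that passed the filter on low counts. The 24 small RNA libraries were made from 3T9 cells, immortalised fibroblasts of mouse embryos, grown in serum. For the purified libraries, cells took up 4-thiouridine (4SU), a uridine analogue that can be coupled to biotin through its sulphur atom, at 300 µM for 3 h (the pulse). They were then given 1 mM uridine (the chase), and RNA that carried 4SU was biotinylated and caught on streptavidin beads after 0, 2, 4, 6, 8, 10 or 12 h of chase, with 1 library at each time in each of 3 experiments. Single libraries were made of total RNA from 4SU-treated cells (total 4SU RNA), of total RNA from untreated cells (total unlabelled RNA) and of an extraction carried out on cells that never received 4SU (the negative extraction). All groups share this one cell line, so every value describes a dividing, immortalised fibroblast population.

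The 3 hairpins lie in an intron of Mcm7, which encodes a subunit of the helicase that unwinds DNA at replication forks, and they are transcribed with it. A hairpin is cut into a duplex of 2 arms, of which the one loaded into an Argonaute protein persists as the guide while its partner is usually degraded. The seed, bases 2 to 8 of the mature miRNA, sets most of its targets. miR-106b-5p and miR-93-5p carry the seed of miR-17, and miR-25-3p carries that of miR-92a, so the cluster is a paralog of miR-17~92. In human cells miR-106b-5p and miR-93-5p are known to repress the cell-cycle inhibitor p21, and miR-25-3p the pro-apoptotic protein BIM.

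The mature sequences (RefSeq, GRCm38.p6) are shown because the comparisons below are between arms, ends and seeds. Capitals mark the seed, and all 6 of 6 names were matched.
miR-106b-5p: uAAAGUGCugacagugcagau
miR-93-5p: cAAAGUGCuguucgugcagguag
miR-25-3p: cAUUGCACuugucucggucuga
miR-106b-3p: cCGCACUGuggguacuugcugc
miR-93-3p: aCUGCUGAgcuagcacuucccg
miR-25-5p: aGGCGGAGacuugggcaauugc
The hairpin of miR-106b is shown with both arms in capitals, since its arm use differed most between purified and total RNA.
Mir106b: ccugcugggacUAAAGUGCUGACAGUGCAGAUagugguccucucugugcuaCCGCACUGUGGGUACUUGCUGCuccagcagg

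All 3 hairpins are on the minus strand of chromosome 5 in GRCm38.p6, Mir106b at chr5:138165737-138165818, Mir93 at chr5:138165523-138165610 and Mir25 at chr5:138165321-138165404. They span 498 bases within intron 13 of an Mcm7 transcript of 15 exons (GENCODE). Mir93 and Mir25 also overlap an exon of a second Mcm7 transcript that retains introns, and Mir106b overlaps no annotated exon. The closest miRNA of the paralogous clusters was 3 edits away from miR-93-5p (miR-17-5p), 4 edits away from miR-25-3p (miR-92a-3p) and 5 edits away from miR-106b-5p. How the authors placed reads that match several miRNAs was not found in the sources used here, so a part of these counts could belong to such relatives.

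The purified libraries held 1133048 to 7886484 miRNA counts, total unlabelled RNA 6412428, total 4SU RNA 4525638 and the negative extraction 283922. Mean depth was 2315928 counts at 12 h and 5122001 at 0 h, so later libraries were shallower. The fibroblast markers listed for this line (6 of 6 with counts) summed to 139206 to 265471 CPM in purified libraries and 436981 CPM in total unlabelled RNA. CPM are counts scaled to a common total of all miRNA counts in a library. Blood markers stayed at or below 0.863 CPM in purified libraries, and the epithelial list, nearly all of it miR-205-5p, at 198 to 1150 CPM, against 184 CPM in total unlabelled RNA. The muscle, neural and embryonic stem cell lists summed to at most 22.1 CPM in purified libraries. A code in the table's header, which the labels do not explain, is shared by experiment 1 and the negative extraction, differs for experiments 2 and 3, and is a further one for both total RNA libraries. Differences between purified and total RNA and differences of that code therefore cannot be told apart.

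The cluster was dominated by miR-25-3p in every library. Over the 21 purified libraries miR-25-3p averaged 10624 ± 1267 CPM (SD, n = 21), the rank 22 among 1129 miRNAs with a count. In the same libraries miR-93-5p averaged 1587 ± 240 CPM and miR-106b-3p 469 ± 92.9 CPM (SD, n = 21). miR-25-5p followed at 185 ± 55.2 CPM, and miR-93-3p and miR-106b-5p were lowest at 47.5 ± 8.74 and 34.1 ± 14.3 CPM (SD, n = 21). Since a read is a whole miRNA, no length scaling was needed. Ranges of neighbours in this order did not overlap as far as miR-25-5p, which at 117 to 328 CPM lay between miR-106b-3p (345 to 644 CPM) and the lowest pair. miR-93-3p (31.9 to 64.9 CPM) and miR-106b-5p (11.9 to 59.6 CPM) overlapped, and their order is not resolved. The 6 miRNAs together took 1.12 to 1.52% of a purified library, and miR-25-3p alone 76.9 to 85.8% of the cluster.

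**Figure D1:**
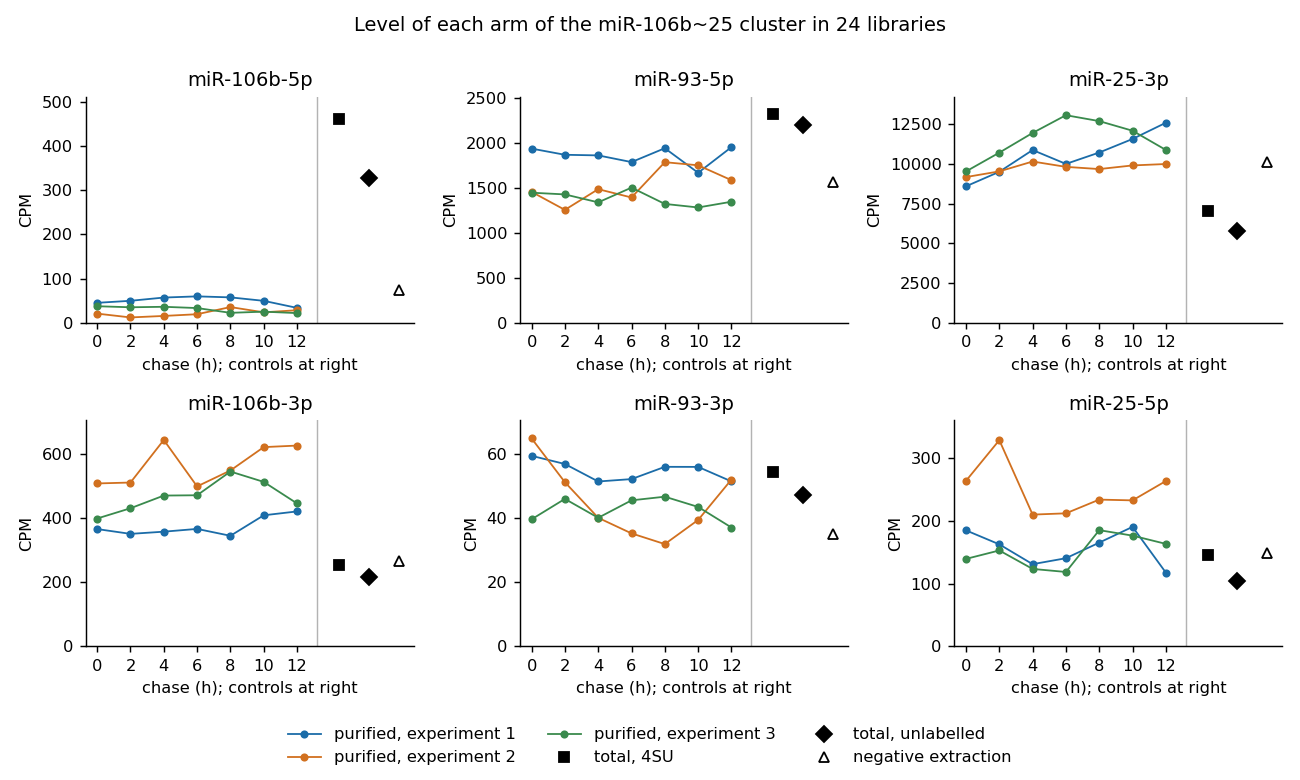
Level of each arm in CPM (linear axes from 0) against hours of chase, with 1 line per experiment of purified RNA, and the single total 4SU, total unlabelled and negative extraction libraries at the right of each panel. miR-106b-5p is the arm whose purified values, 11.9 to 59.6 CPM, all lie far below both total RNA libraries (460 and 328 CPM).

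Captured RNA at the end of the pulse was set against total RNA to ask which arms were over- or under-represented among 4SU-purified molecules. miR-106b-5p stood at 45.0, 20.5 and 37.3 CPM in the 3 purified libraries at 0 h, against 460 CPM in total 4SU RNA and 328 CPM in total unlabelled RNA. All 21 purified values, at most 59.6 CPM, were below both. The ratio of 0 h to total unlabelled RNA was -3.22 on the log2 scale with 1 CPM added (9.32-fold lower), and -2.84, -3.93 and -3.10 in experiments 1, 2 and 3. This placed miR-106b-5p at rank 8 from the lowest of 414 miRNAs, whose median was 0.27 and whose central 90% ran between -2.16 and 1.64. miR-106b-5p was the only one of the 6 past 2-fold, while 144 of 414 miRNAs (34.8%) were past it in either direction and 15.0% were lower. With single total RNA libraries there is no test of this difference.

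The other arms were closer to their total RNA levels. miR-93-5p had 1933, 1453 and 1443 CPM at 0 h, against 2191 CPM in total unlabelled RNA, a log2 ratio of -0.44. miR-25-3p had 8594, 9175 and 9531 CPM at 0 h, against 5796 CPM in total unlabelled RNA, a log2 ratio of 0.65. Thus of the arms that are usually the guides, that of miR-25 was higher in each purified library than in total RNA and that of miR-93 lower. miR-106b-3p had 366, 508 and 399 CPM at 0 h, against 217 CPM in total unlabelled RNA (log2 ratio 0.96), and miR-25-5p 185, 263 and 139 CPM, against 105 CPM (log2 ratio 0.90). miR-93-3p, at 59.5, 64.9 and 39.7 CPM against 47.4 CPM, lay on both sides of its total level. Leaving out experiment 1 or 3 took the number of members past 2-fold to 2 or 3, because miR-106b-3p and miR-25-5p lie close to that limit.

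The number of uridines, the bases at which 4SU can enter, did not order these ratios. miR-106b-5p and miR-93-3p both have 5 uridines, with log2 ratios of -3.22 and 0.20. miR-25-3p has 8, miR-93-5p and miR-106b-3p have 6 each and miR-25-5p has 4. Over the 346 of 414 miRNAs with a RefSeq sequence, uridine number and log2 ratio had a Pearson r of -0.04 and a Spearman rho of -0.02, a description across miRNAs that share their libraries. Of the 62 miRNAs with 5 uridines, 1 had a lower ratio than miR-106b-5p.

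The negative extraction contained the same 6 miRNAs. miR-25-3p averaged 10624 CPM in purified libraries, against 10094 CPM in the negative extraction (2866 counts, exact Poisson 95% interval 9728 to 10471 CPM), a ratio of negative to purified of 0.950. miR-93-5p averaged 1587 CPM in purified libraries, against 1560 CPM in the negative extraction, a ratio of 0.983. miR-106b-3p averaged 469 CPM in purified libraries, against 268 CPM in the negative extraction, a ratio of 0.570. Only miR-106b-5p was higher in the negative extraction, with 34.1 CPM in purified libraries, against 74.0 CPM in the negative extraction (21 counts, 45.8 to 113 CPM) and 328 CPM in total unlabelled RNA. For miR-25-5p and miR-93-3p the ratios of negative to purified were 0.799 and 0.741. The intervals cover counting error only. The proportions of the cluster after extraction thus lay near those of the purified libraries also where the cells had received no 4SU, with miR-106b-5p and miR-106b-3p the farthest apart. CPM give proportions and not the amount of RNA recovered, which is not in the counts.

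The arms of miR-106b were present in opposite proportions in purified and total RNA. miR-106b-3p made up 85.8 to 97.7% of the counts of its hairpin in the 21 purified libraries, with medians of 87.6, 96.3 and 93.4% in experiments 1, 2 and 3. It made up 35.6% in total 4SU RNA, 39.9% in total unlabelled RNA and 78.4% in the negative extraction. No purified library overlapped the total RNA libraries. The log2 ratio of 3p to 5p arm was 4.24 higher at 0 h than in total unlabelled RNA, rank 5 of 102 hairpins with both arms tested, where the median shift was 0.46. An arm that was the lesser one in total RNA exceeded its partner in all 21 purified libraries in 4 of 102 hairpins (3.92%), and these 4 were among the 11 of 102 hairpins in which it did so in the negative extraction. Among reads of the canonical class alone miR-106b-3p exceeded miR-106b-5p in 7 of 21 purified libraries, and the shift was 3.39. In experiment 2 it did so at each time except 8 h, in experiment 3 only at 8 h, and in experiment 1 at no time. The canonical class held 2.75% of the counts of miR-106b-3p on average.

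miR-93 and miR-25 kept the same major arm in each library. miR-93-3p made up 1.76 to 4.28% of its hairpin's counts in purified libraries and 2.12% in total unlabelled RNA. miR-25-5p made up 0.897 to 3.33% of its hairpin's counts in purified libraries and 1.77% in total unlabelled RNA. Their shifts of the log2 arm ratio, 0.63 and 0.20, were near the median of all hairpins. miR-25-5p was highest in experiment 2, with a median of 2.36% of the hairpin against 1.52 and 1.43% in experiments 1 and 3.

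**Figure D2:**
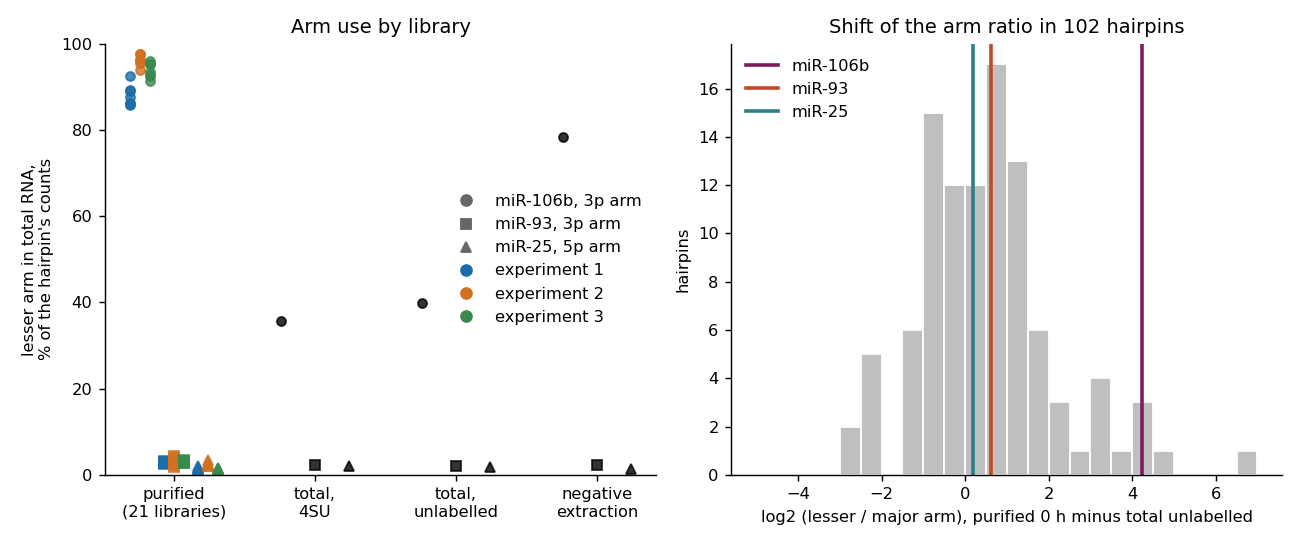
Left, share of each hairpin's counts held by the arm that is lesser in total RNA, in % (0 to 100), 1 point per library, coloured by experiment for purified RNA. Right, number of hairpins (of 102) by the change of the log2 arm ratio between purified RNA at 0 h and total unlabelled RNA. The 3p arm of miR-106b lies above 85% in purified RNA and near 40% or below in total RNA, and its shift of 4.24 is in the upper tail.

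Arm ratios did not drift detectably during the chase. The log2 ratio of lesser to major arm changed by 0.025 per hour (SE 0.0449) for miR-106b, -0.021 (SE 0.0192) for miR-93 and -0.024 (SE 0.0292) for miR-25, with limma adjusted p of 0.815, 0.521 and 0.651. None of the 3 passed the threshold of 0.05 on the limma adjusted p, while 9 of 102 hairpins (8.82%) did. None of them had an unadjusted p under 0.05 either, while 26 of 102 hairpins did. With the experiment as a block 28 hairpins (27.5%) passed and again none of these 3.

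The slope of each arm over the chase asked whether its share of the purified pool rose or fell relative to other miRNAs. The negative extraction held the same miRNAs, so this pool was not taken to be labelled RNA alone. miR-25-3p rose. It stood at 12598, 9998 and 10884 CPM at 12 h, against 8594, 9175 and 9531 CPM at 0 h in experiments 1, 2 and 3. The slope was 0.041 per hour on the log2 scale (SE 0.0107, edgeR adjusted p = 0.0131), and it was 1 of 6 members called, against 51 of 414 miRNAs (12.3%; 5.07% rising). The call was lost in further fits that, like this one, had no term for the experiment. The edgeR adjusted p was 0.225 without experiment 1 and 0.117 without experiment 3. It was 0.0889, 0.0577 and 0.0548 without the single libraries of 0 h in experiment 1, 0 h in experiment 3 and 12 h in experiment 1. The call was also lost without the 0 h libraries (0.313), without the 12 h libraries (0.0567), and when libraries were scaled to total counts (slope 0.022, 0.160). With that scaling the median slope of all miRNAs was -0.023, against -0.0037 with TMM.

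Libraries of one experiment deviated together, so the fit with the experiment as a block stands beside this one. In it miR-25-3p had an edgeR adjusted p of 0.000145, and 2 further members were called. miR-106b-3p rose at 0.040 per hour (SE 0.00834, edgeR adjusted p = 0.000419 with the block and 0.181 without it). It had 421, 627 and 446 CPM at 12 h, against 366, 508 and 399 CPM at 0 h, higher at 12 h within each experiment although the groups overlap. miR-93-5p rose at 0.024 per hour (SE 0.00728, edgeR adjusted p = 0.0126 with the block and 0.184 without it). Its CPM barely differed, at 1949, 1582 and 1343 CPM at 12 h against 1933, 1453 and 1443 CPM at 0 h, and with the block and total counts only its adjusted p was 0.709. The block called 132 of 414 miRNAs (31.9%; 15.2% rising), so 3 of 6 is to be read against that share. Without the 0 h libraries the block called 3 of 6 members and 92 of 403 miRNAs.

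The remaining arms had slopes near 0 whose intervals include either direction. miR-106b-5p had 33.5, 28.2 and 21.7 CPM at 12 h, against 45.0, 20.5 and 37.3 CPM at 0 h, lower in experiments 1 and 3 and higher in experiment 2. Its slope was 0.0065 per hour (SE 0.0302, edgeR adjusted p = 0.919). miR-25-5p and miR-93-3p had slopes of 0.014 (SE 0.0246, edgeR adjusted p = 0.785) and 0.0017 (SE 0.0148, adjusted p = 0.956). The signs of these 3 slopes turned under some scalings. The median slope of the 6 members was 0.019, against -0.0037 over all 414 miRNAs.

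**Figure D3:**
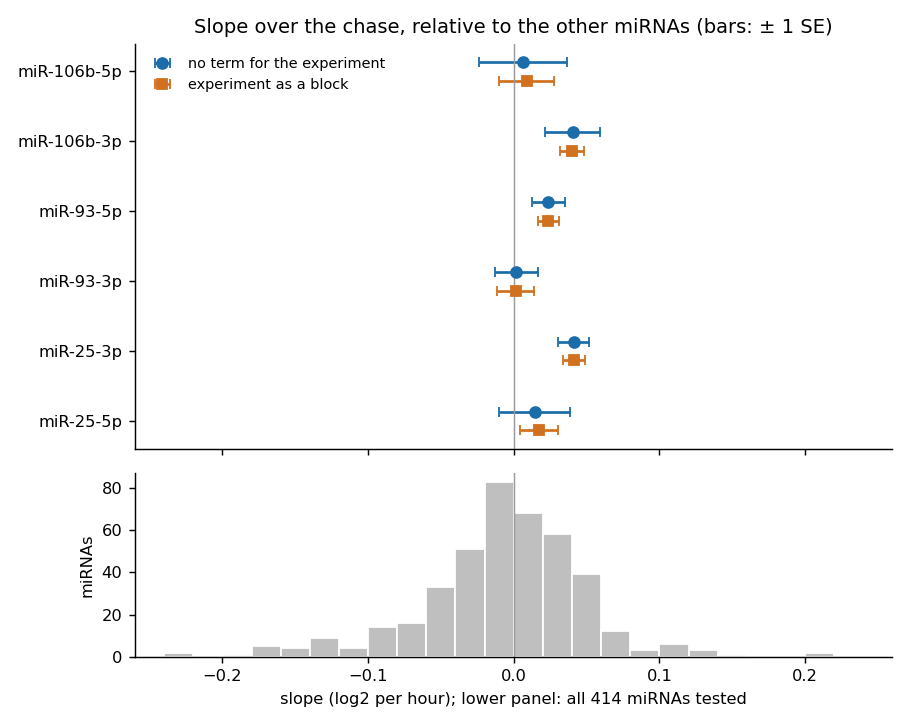
Top, slope over the chase of each arm in log2 per hour (points) with 1 SE (bars), from edgeR without and with the experiment as a block. Bottom, slopes of all 414 miRNAs tested without the block. miR-25-3p and miR-106b-3p have slopes of 0.041 and 0.040, and the block narrows the bar of miR-106b-3p to 0.00834.

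Over the whole chase, edgeR gave miR-25-3p a log2 difference of 0.53 at 12 h relative to 0 h (1.45-fold, SE 0.177, adjusted p = 0.151), and miR-106b-3p one of 0.48 (SE 0.317, adjusted p = 0.581). None of the 6 passed in edgeR, DESeq2 or limma-voom. In edgeR 1 of them, miR-25-3p, had an unadjusted p under 0.05, as did 53 of all 414 miRNAs. Of all miRNAs 5 passed in edgeR (1.21%), 15 in DESeq2 and 5 in limma-voom. With the experiment as a block miR-25-3p and miR-106b-3p passed, at edgeR adjusted p of 0.00171 and 0.0105, among 90 miRNAs (21.7%). TMM scaling adds to these values, since the ratio of CPM at 12 h to 0 h for miR-25-3p was 1.47, 1.09 and 1.14 in experiments 1, 2 and 3.

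The 3 arms that lead their hairpins in total RNA were compared within libraries, where scaling enters only through 1 CPM added to each level. Averages over purified libraries are geometric means with that 1 CPM, and ratios of single control libraries are without it. miR-25-3p was on average 6.72 times miR-93-5p in purified libraries, against 2.65 times in total unlabelled RNA and 6.47 times in the negative extraction. It was 328 times miR-106b-5p in purified libraries, against 17.7 times in total unlabelled RNA. Over the chase these log2 ratios changed by 0.017 and 0.026 per hour, and that of miR-93-5p to miR-106b-5p by 0.0089, with permutation p of 0.106, 0.280 and 0.626 and adjusted p over the 3 pairs of 0.319, 0.420 and 0.626 (two-sided, 100000 resamples within experiments). The 3 experiments went different ways. The ratio of miR-25-3p to miR-93-5p had slopes of 0.043, -0.021 and 0.029 in experiments 1, 2 and 3, and without experiment 2 both ratios of miR-25-3p passed (permutation adjusted p of 0.00337 and 0.00192).

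Isoforms, the variants of an arm that differ at their ends, were counted by the authors in separate classes. The definitions of the classes were not found in the sources used here. Going by their names, canonical reads were taken to match the annotated mature sequence, trimmed ones to be shorter, templated extensions to continue into the hairpin, and added bases not to match it. miR-25-3p was mostly canonical, at 72.7 ± 2.14% of its counts in purified libraries (SD, n = 21), with 16.8% trimmed and 10.3% carrying added 3' bases. miR-93-5p was split between trimmed (45.5 ± 8.05%) and canonical forms (39.1 ± 6.24%), and experiment 1 stood apart with 54.2 to 59.9% trimmed, against 36.5 to 46.6% in experiments 2 and 3 together. miR-106b-5p was canonical at 53.4% and templated-extended at 30.3%, on 24 to 391 counts per library.

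The canonical class did not lead in any purified library of the partner arms, but its share differed between them. In purified libraries it held 20.3 to 35.9% of the counts of miR-25-5p and 3.17 to 14.7% of those of miR-93-3p. miR-106b-3p was canonical in 2.75 ± 0.832% of its counts (SD, n = 21), trimmed in 63.0%, and carried added 3' bases in 21.1%, of which adenosine alone made 16.4%. miR-93-3p had templated 3' extensions in 77.1% and miR-25-5p in 63.7% of their counts. In total unlabelled RNA the leading class of each arm was that of the purified means. Single libraries differed for miR-93-5p, whose canonical form led in 5 of 7 libraries of experiment 2 and 5 of 7 of experiment 3 while its trimmed form led in 7 of 7 of experiment 1, and for miR-106b-5p, whose templated extensions led in 2 of 7 libraries of experiment 2. The next base of the hairpin is A after miR-106b-5p and miR-93-3p and U after miR-106b-3p, miR-93-5p and miR-25-5p, so a single added A or U there cannot be told apart from a templated one.

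**Figure D4:**
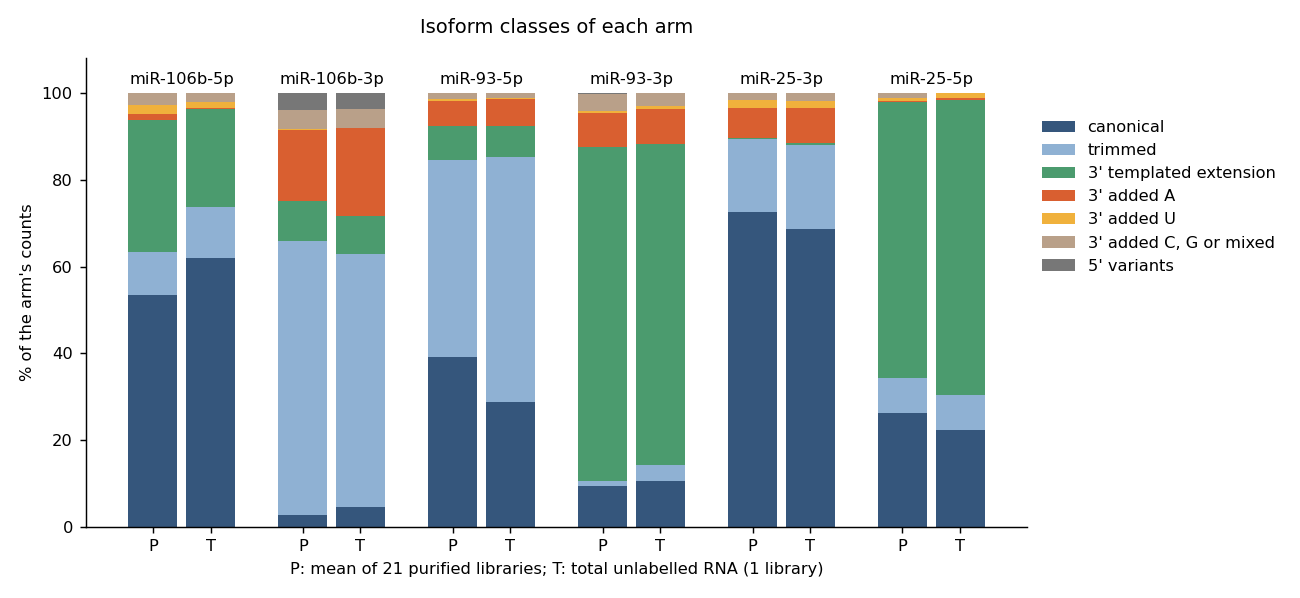
Share of each arm's counts by isoform class, in %, as the mean of 21 purified libraries (P) beside the single total unlabelled library (T). miR-106b-3p is mainly trimmed (63.0% in purified RNA), miR-93-3p and miR-25-5p mainly extended by templated bases (77.1 and 63.7%), and miR-25-3p mainly canonical (72.7%).

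Some end classes of miR-25-3p and miR-106b-3p had slopes over the chase that passed in limma. Of 28 pairs of member and class with enough counts, 5 passed, 3 rising and 2 falling. Over all miRNAs 114 of 1003 pairs passed (11.4%, with 6.58% rising and 4.79% falling). Each of the 5 calls was lost on leaving out at least 1 of the experiments. Templated 3' extensions were called as rising on miR-25-3p and as falling on miR-106b-3p. Slopes are of the log2 odds of a class within its arm. Added adenosine on miR-25-3p rose, to 6.06, 8.38 and 7.77% at 12 h, against 5.84, 6.17 and 6.53% at 0 h in experiments 1, 2 and 3. Its slope was 0.028 per hour (limma adjusted p = 0.0280), and the call was lost without experiment 2 (0.204) or 3 (0.0990). Over all miRNAs 17 of 103 pairs with added adenosine rose and 1 fell.

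Added uridine on miR-25-3p passed the test with the experiment as a block and not without it. It stood at 1.32, 1.92 and 1.72% at 12 h, against 2.12, 2.09 and 1.79% at 0 h, lower in each experiment, with a slope of -0.030 per hour (limma adjusted p = 0.0791, and 0.00515 with the experiment as a block). Among all miRNAs 1 of 78 pairs with added uridine rose and 10 fell. The scarce templated 3' extension of miR-25-3p rose to 0.259, 0.415 and 0.308% at 12 h, against 0.194, 0.195 and 0.232% at 0 h. Its slope was 0.049 (limma adjusted p = 0.0153, and 0.0983 without experiment 3).

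Extended forms of miR-106b-3p fell and trimmed ones rose. These are shares of the same counts, so a fall in some classes raises others and the calls are not independent. Templated 3' extensions fell to 7.16, 8.73 and 7.88% of its counts at 12 h, against 11.6, 14.2 and 10.6% at 0 h. The slope was -0.057 per hour (limma adjusted p = 0.0108, and 0.0694 without experiment 3). Templated 5' extensions fell to 2.53, 2.68 and 3.19%, against 3.99, 4.56 and 3.37% (slope -0.055, limma adjusted p = 0.0151, and 0.122 without experiment 1 and 0.0693 without experiment 2). Trimmed forms rose to 65.1, 66.2 and 64.6%, against 62.8, 54.9 and 63.3% (slope 0.030, limma adjusted p = 0.0344), a call lost without any one of the experiments (0.0811, 0.254 and 0.0809). The templated 3' share of miR-106b-3p was 5.81% in total 4SU RNA and 8.69% in total unlabelled RNA.

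With the experiment as a block 281 of 1003 pairs (28.0%) and 10 of the 28 member pairs passed in limma. The additional ones were added uridine and trimming of miR-25-3p, both falling, trimming of miR-25-5p, rising, and added adenosine and all added bases of miR-93-5p. All added bases include added adenosine, so the calls of miR-93-5p overlap. Added adenosine on miR-93-5p stood at 5.22, 8.03 and 7.38% at 12 h, against 4.38, 5.54 and 5.96% at 0 h, higher within each experiment (slope 0.035, limma adjusted p = 0.129 without the block and 0.0144 with it). Without the 0 h libraries 1 member pair passed without the block, against 65 of 1003 pairs, so 4 of the 5 calls were lost there.

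**Figure D5:**
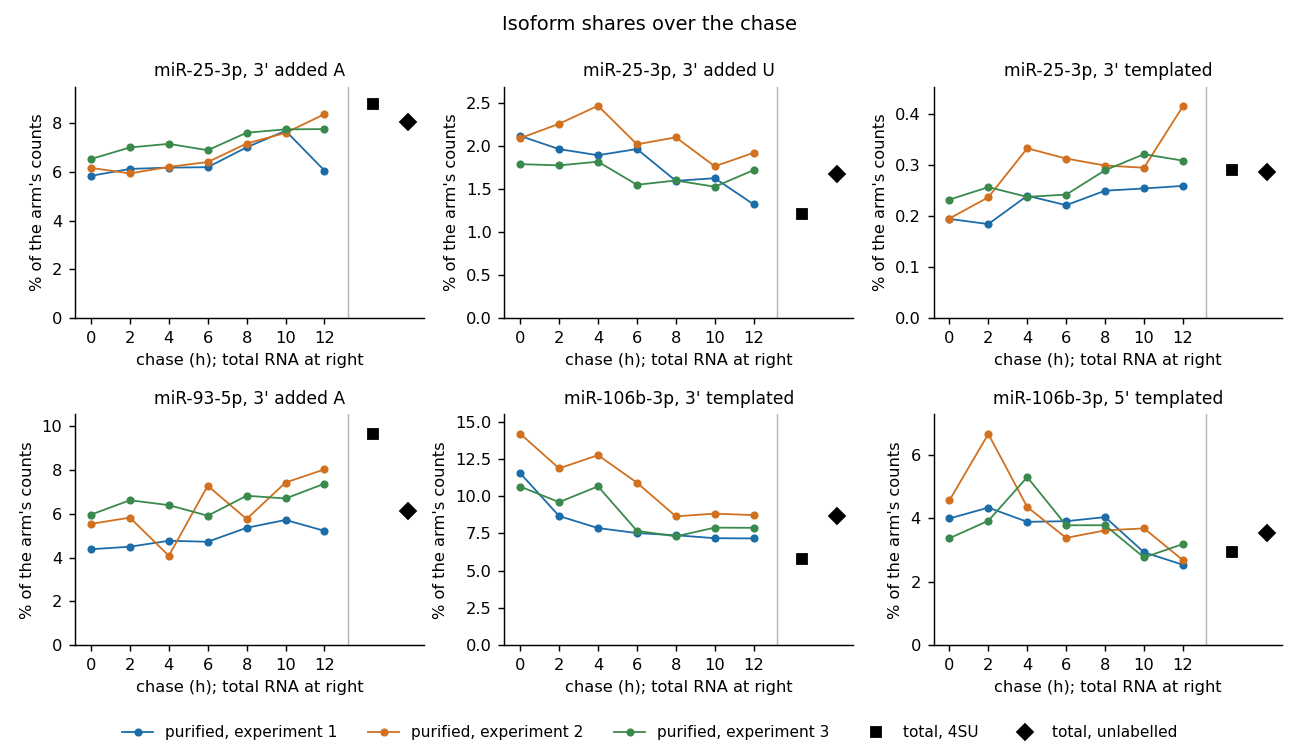
Share of the arm's counts in 6 isoform classes, in % (axes from 0), against hours of chase, with 1 line per experiment, and total RNA libraries at the right. The templated 3' extension of miR-106b-3p is at 7.16 to 8.73% at 12 h against 10.6 to 14.2% at 0 h, while added adenosine on miR-25-3p is at 6.06 to 8.38% at 12 h against 5.84 to 6.53% at 0 h.

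Within its seed group the cluster weighed differently on each side. Of 6 miRNAs listed with the seed AAAGUGC, miR-93-5p held 73.0 to 83.2% of the counts in purified libraries and miR-106b-5p 0.778 to 2.53%. Of 4 with the seed AUUGCAC, miR-25-3p held 5.91 to 12.1%, because miR-92a-3p averaged 109759 ± 24714 CPM (SD, n = 21). miR-92a-3p, from miR-17~92, rose at 0.072 per hour (SE 0.0178, edgeR adjusted p = 0.00897), and miR-17-5p and miR-20a-5p had slopes of 0.028 and 0.018 (adjusted p of 0.354 and 0.662).

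Among 15 paralogous miRNAs with entries, 10 were tested, of which 3 rose and 1 fell in edgeR, with a median slope of 0.039, against 5.07% rising and 7.25% falling over all miRNAs. With the experiment as a block 5 rose and 1 fell, against 15.2% and 16.7% over all miRNAs. miR-17-5p and miR-20a-5p, which share the seed of miR-106b-5p, were also lower in purified RNA at 0 h than in total unlabelled RNA, with log2 ratios of -1.15 and -1.02. Some other paralogs had ratios around the -3.22 of miR-106b-5p, with -3.91 for miR-19b-3p, -3.70 for miR-19a-3p and -2.97 for miR-18a-5p. These are named here after their values were seen. The remaining tested paralogs lay higher, at -0.69 for miR-20a-3p, -0.09 for miR-92a-1-5p, -0.08 for miR-17-3p, 0.44 for miR-92a-3p and 0.66 for miR-18a-3p. The median log2 ratio of the 10 tested paralogs was -0.85.

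Across the 21 purified libraries the arms of miR-106b varied in opposite directions, with a Pearson r of -0.68 between their log2 levels, while miR-106b-3p and miR-25-5p had an r of 0.71. By the same measure, among 139 miRNAs of at least 100 CPM, miR-106b-5p was most like miR-31-5p (r = 0.86), miR-15a-5p (0.85) and miR-199a-3p (0.83). miR-93-5p was most like miR-22-3p (0.80), miR-301a-3p (0.78) and miR-130b-3p (0.77), and miR-25-3p most like miR-18a-3p (0.80), miR-365-3p (0.76) and miR-148b-3p (0.72). These r describe 21 libraries that share experiments and scaling, and carry no test. miR-106b-5p was lower in experiment 2 (median 20.5 CPM) than in experiments 1 (49.6 CPM) and 3 (33.1 CPM), and miR-106b-3p was higher there (549 CPM, against 366 and 471 CPM), a difference between experiments whose source was not tested.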

How the data were processed

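Small RNA libraries of 21 purified and 3 control samples were analysed. The values deposited by the authors are raw read counts per mature miRNA and isoform class, 1 column per library, not normalised. The submitters' processing notes name CASAVA 1.8.0. Which aligner, annotation, isoform definitions and rule for reads matching several miRNAs were used is not given in the sources used here. The 8 classes that count each read once were summed per miRNA, and 1 duplicate of 7129 entries was dropped. A level of 3 counts was 0.38 to 2.65 CPM in purified libraries.

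The main tests were edgeR 4.0.16 (quasi-likelihood, TMM, filterByExpr by time point, 414 miRNAs) for slopes and for 12 h relative to 0 h, and limma 3.58.1 for arm ratios (1 CPM added) and isoform shares (0.5 added, at least 20 counts on average inside and outside the class), in R 4.3.3. Benjamini-Hochberg adjustment ran over all features, with a threshold of 0.05, and no term for the experiment was included. Scripts were tested on simulated data. Slopes are relative, as no spike-in enters, and are not half-lives.

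Deviations from time-point means correlated at 0.323 to 0.761 in all 63 library pairs from the same experiment, so the experiment number pairs the libraries. In 126 pairs from different experiments they correlated at -0.669 to 0.226. The 3 deviations at each time cancel out by construction, so this second range is not independent of the first. The series design calls the experiments independent replicates. All 6 members were named in every comparison, with paralogs that share a guide's seed and the 3 miRNAs most like each guide. Members and lists were chosen with earlier results of these data known. Alternatives were other scalings, DESeq2 1.42.0, limma-voom, filters, canonical reads alone, thinning, the block, and leaving out libraries, experiments or end times.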

Additional observations from a re-analysis of the deposited data

How the results depend on the processing

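With the replicate block 3 members were called for the slope in place of 1, 2 in place of 0 for 12 h relative to 0 h, and 10 in place of 5 isoform pairs. The slope count was 0 with total counts only, without a filter on low counts, without 0 h and without 12 h. Other miRNAs were still called in each of those settings, with 14 of 403 without 0 h. The slope count was 2 with the replicate block and total counts only, where 147 of 414 miRNAs were called. It was 3 with the replicate block without 0 h, where 92 of 403 miRNAs were called. Isoform pairs called were 3 of only 18 member pairs tested with a minimum of 100 counts, and 1 of 28 without 0 h. Both were smaller shares than those of all pairs in the same setting, which were 65 of 1003 without 0 h. Leaving out experiments or end libraries gave 0 to 1 members for the slope, 1 to 4 isoform pairs, 0 to 2 guide ratios and 1 to 3 members past 2-fold against total RNA. Over all miRNAs the calls ranged between 14 and 147 for the slope and 0 and 101 for 12 h relative to 0 h, between 1 and 28 hairpins, and between 48 and 281 isoform pairs.

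Signs turned in values that did not pass in the main tests. The slope of miR-106b-5p was -0.013 with total counts only, -0.0099 with the block and total counts, -0.0013 without the filter and -0.0027 without 0 h. That of miR-93-3p was -0.00069 with RLE scaling, -0.017 with total counts only, -0.018 with the block and total counts, -0.0015 in DESeq2, -0.0046 without the filter, -0.0082 after thinning and -0.0054 without 12 h. That of miR-25-5p was -0.0047 with total counts only and -0.0020 with the block as well. At 12 h relative to 0 h, miR-106b-5p was at 0.070 with upper-quartile scaling and 0.0075 for canonical reads. miR-93-3p was at -0.22 with total counts only, -0.23 with the block as well, -0.083 without the filter, -0.0076 for canonical reads and -0.076 after thinning, and miR-25-5p at -0.12 and -0.14 with total counts, without and with the block. For canonical reads the arm slope of miR-93 was 0.00087 and that of the miR-93-5p to miR-106b-5p ratio -0.0100. The causes were not tested.
Leaving out experiments or end libraries gave slopes of -0.016 to 0.026 for miR-106b-5p, -0.0084 to 0.017 for miR-93-3p and -0.0026 to 0.030 for miR-25-5p. The 12 h differences were then -0.29 to 0.15, -0.18 to 0.19 and -0.23 to 0.43 for these 3. Arm slopes were -0.0077 to 0.065 for miR-106b and -0.035 to 0.00096 for miR-93, and slopes of the guide ratios -0.0043 to 0.074 for miR-25-3p over miR-106b-5p and -0.015 to 0.038 for miR-93-5p over miR-106b-5p.

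The depth of the negative extraction limits its low members to 10 to 42 counts, and miR-106b-5p had as few as 24 counts in a purified library. Total RNA and the negative extraction are single libraries, so no difference between them and purified RNA has a replicate check on both sides.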
